A study of Mus musculus with 26 samples.

Results

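Liver RNA from all 26 mice of the series was read along the dose order, with 0, 0.5, 5 and 50 mg/kg benoxacor coded 0, 1, 2 and 3. The mice were C57BL/6, acclimatized from 4 to 8 weeks, as the labels put it, with mixed bedding to even out their gut bacteria, then gavaged on 3 consecutive days and sampled 24 hours after the last dose. Benoxacor is a safener, a compound added to herbicides to protect the crop. The control group is labelled 0 mg/kg, and the labels name neither its vehicle nor the sex of the mice. There were 5 mice at 0, 5 at 0.5, 8 at 5 and 8 at 50 mg/kg, and each mouse gave 1 library. The mouse numbers fall into a run of 15 mice up to 616 and a run of 11 mice from 619, here called the 601 run and the 619 run. In order of dose, 4, 3, 4 and 4 mice belonged to the 601 run and 1, 2, 4 and 4 to the 619 run. What sets the runs apart is not in the labels. Within each run the numbers rise with the dose in blocks, so dose and number order cannot be told apart.

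The order of doses matters because many liver responses to foreign compounds grow with exposure. The receptors CAR, PXR and AhR bind such compounds or sense them and switch on cytochrome P450s, conjugating enzymes and transporters. Heat shock factors act through short repeated elements in promoters and switch on chaperones when proteins misfold. Bile acid synthesis from cholesterol starts with Cyp7a1 and is held back by bile acids through the receptor Fxr, encoded by Nr1h4, and by the gut hormone Fgf15. A change that follows dose differs from one that appears at 1 dose only, and a change seen in both runs differs from one seen in 1 of them.

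For each gene a straight line over the 4 codes was fitted to the counts, with a term for run. Its slope is the log2 change per dose step, and 1 on this scale is a doubling at each step. With these codes the line is the same as one over log10 dose with the control placed 1 decade below 0.5 mg/kg. Genes were called at an adjusted p of 0.05 by edgeR's quasi-likelihood test, Benjamini-Hochberg adjusted over 14415 tested genes. Levels are given as CPM, a gene's reads relative to all reads of its library after scaling by TMM factors, and are compared between mice but not between genes.

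Hepatocyte markers were present in every library, with 14 of the 14 marker genes found in the table averaging at least 1 CPM, so the labelled tissue was borne out. Libraries held 5433074 to 9088626 counts. A few of them stood apart. The inflammation marker Saa1 was at 2311 and 3233 CPM in replicates 1 and 2 at 0.5 mg/kg and at no more than 655 CPM elsewhere. Replicate 8 at 5 mg/kg had a summed level of adrenal markers of 4776 CPM, against at most 293 CPM in any other library, and summed lymphocyte markers of 231 CPM. Its summed adipocyte markers stood at 1012 CPM, and those of replicate 6 at that dose at 583 CPM. A clock index, the mean log2 level of Arntl, Npas2 and Clock minus that of Dbp, Per3, Nr1d1, Nr1d2 and Ciart, had a median of -3.18 in the 601 run and -0.296 in the 619 run.

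Along the dose order 2 of 14415 genes passed (0.0139% of those tested), both lower: Zbtb16, a zinc finger transcriptional repressor, and Hspa1b, an inducible 70 kDa heat shock chaperone. No gene passed upward. At an unadjusted p under 0.05, 295 genes (2.05%) had a positive slope and 319 (2.21%) a negative one. Together these 614 genes are 4.26% of those tested, no more than that threshold lets through on average when no gene changes. Positive slopes made up 50.6% of all genes. The bile acid enzyme Cyp7a1 had the steepest upward slope among the leading genes and did not pass.

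Zbtb16 (ENSMUSG00000066687, chromosome 9, 48654297 to 48836222 in mm10, minus strand) fell by 32.4% per dose step along the fitted line. In the 601 run the mice at 0 mg/kg had 27.6, 18.7, 14.3 and 27.6 CPM. At 0.5 mg/kg the same run had 18.7, 18.5 and 9.39 CPM. At 5 mg/kg it had 9.77, 9.33, 12.1 and 6.62 CPM, and at 50 mg/kg 5.397, 6.09, 8.46 and 7.16 CPM. Every mouse of that run at 5 and 50 mg/kg lay below its lowest control. Each dose overlapped the next: 0 with 0.5, 0.5 with 5, and 5 with 50 mg/kg.

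In the 619 run the level of Zbtb16 started higher. Its 1 control had 54.6 CPM, the 0.5 mg/kg mice 30.7 and 16.4 CPM, the 5 mg/kg mice 19.9, 8.41, 30.9 and 18.3 CPM, and the 50 mg/kg mice 19.97, 15.5, 13.04 and 9.53 CPM. All 10 treated mice of the run lay below the control, but the 3 treated doses overlapped.

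The slope of Zbtb16 was -0.57 (SE 0.077, 95% confidence interval -0.72 to -0.41, adjusted p = 5.97e-04 by edgeR's quasi-likelihood test, Benjamini-Hochberg adjusted). Fitted dose levels were 0.74, 1.28 and 1.72 below control on the log2 scale, so each of the 3 steps went down, by -0.74, -0.54 and -0.44. Within the 601 run the slope was -0.58 (adjusted p = 0.00227, edgeR). Within the 619 run it was -0.54, which did not pass over all genes (unadjusted p = 0.00191, adjusted p = 0.99995). The runs' slopes differed by 0.038 (SE 0.16, unadjusted p = 0.817). The slope without the 0 mg/kg mice was -0.48 and without the 50 mg/kg mice -0.63, and the call ended in both cases (adjusted p = 1 and 0.478, edgeR). It also ended with no run term in the fit (-0.46, adjusted p = 0.891), with dose in mg/kg as the term (-0.37, adjusted p = 0.9997), and without both the 0 mg/kg mice and the 2 high-Saa1 mice at 0.5 mg/kg (-0.35, adjusted p = 0.813, edgeR).

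Hspa1b (ENSMUSG00000090877, chromosome 17, 34956436 to 34959238, minus strand) has a near-identical neighbour, Hspa1a (chromosome 17, 34969190 to 34972156, minus strand). The bases just upstream of both starts are printed because they hold the same heat shock element and show how alike the copies are. They come from RefSeq on GRCm38.p6, the sequence behind mm10, for chr17:34959239-34959488 and chr17:34972157-34972406, minus strand, 5′ to 3′, and capitals mark the element GAANNTTC.
Hspa1b: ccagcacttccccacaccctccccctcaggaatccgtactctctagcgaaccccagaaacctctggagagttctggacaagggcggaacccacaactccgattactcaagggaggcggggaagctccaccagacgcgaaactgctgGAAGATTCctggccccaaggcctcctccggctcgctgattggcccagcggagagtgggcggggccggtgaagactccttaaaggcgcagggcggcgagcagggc
Hspa1a: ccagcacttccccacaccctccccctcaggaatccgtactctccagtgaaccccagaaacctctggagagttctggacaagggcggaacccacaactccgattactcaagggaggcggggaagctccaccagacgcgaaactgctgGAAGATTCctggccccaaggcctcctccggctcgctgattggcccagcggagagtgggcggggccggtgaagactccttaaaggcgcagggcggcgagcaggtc

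Counted from the 5′ end, with the Hspa1b base first, the printed stretches differ at 3 positions, T44C, C47T and G249T. Over the whole RefSeq window of 300 bases, 296 (98.7%) were identical. The element GAANNTTC reads the same on both strands and started at position 147 in both genes. It occurs in 7.22% of tested genes' windows of the same length and in 11 of 17 (64.7%) of tested heat shock genes with a window. Reads from the copies can be split between them, and the counting rule for shared reads is not given in the sources used here.

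Hspa1b fell across the doses, most between 0.5 and 5 mg/kg. In the 601 run the controls had 27.0, 16.9, 20.5 and 14.2 CPM, the 0.5 mg/kg mice 13.5, 12.7 and 16.4 CPM, the 5 mg/kg mice 6.86, 9.20, 9.44 and 15.9 CPM, and the 50 mg/kg mice 7.24, 7.87, 6.13 and 4.77 CPM. All 4 mice at 50 mg/kg were below every control and every 0.5 mg/kg mouse of their run. The 619 run, with 1 control and 2 mice at 0.5 mg/kg, was higher rather than lower at the first step. Its control had 11.7 CPM, the 0.5 mg/kg mice 18.8 and 16.04 CPM, the 5 mg/kg mice 12.2, 4.21, 7.19 and 7.78 CPM, and the 50 mg/kg mice 12.8, 8.93, 8.84 and 7.18 CPM. Both 0.5 mg/kg mice of that run were above its control, and 3 of 4 were below it at each of the higher doses.

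The slope of Hspa1b was -0.43 (SE 0.079, 95% confidence interval -0.60 to -0.27, adjusted p = 0.0473 by edgeR's quasi-likelihood test, Benjamini-Hochberg adjusted), a loss of 25.9% per step. Its steps were -0.22, -0.77 and -0.19. The slope was -0.52 in the 601 run (adjusted p = 0.00487, edgeR) and -0.27 in the 619 run (unadjusted p = 0.0984), and the test of their difference gave an unadjusted p of 0.138. The call is close to the threshold: it held in 6 of 26 fits that each left out 1 mouse, with adjusted p from 0.0085 to 0.324 and slopes from -0.49 to -0.39. It held without replicate 4 or 5 at 0, replicate 4, 6 or 8 at 5 or replicate 5 at 50 mg/kg, and leaving out any other mouse ended it, as did summing the reads of Hspa1a and Hspa1b (slope -0.42, adjusted p = 0.0573, edgeR). Without both high-Saa1 mice at 0.5 mg/kg the slope was -0.44 (adjusted p = 0.0534, edgeR), and without replicates 6 and 8 at 5 mg/kg it was -0.43 (adjusted p = 0.00649, edgeR). Hspa1a itself was too low to test, at 0.117 to 2.10 CPM.

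Of the other chaperones tested none passed. Of 23 tested genes in a heat shock list, 17 had negative and 6 positive slopes (49.4% of all tested genes were negative), with 2 of the negative ones, Hspa1b included, at an unadjusted p under 0.05. The list median was -0.051 per step against 0.0010 over all tested genes, with -0.032 in the 601 run and -0.040 in the 619 run. Hsph1, an Hsp110 that recharges Hsp70 with ATP, had a slope of -0.16 (unadjusted p = 0.0484, adjusted p = 1, edgeR), and Dnajb1, an Hsp40 that hands clients to Hsp70, had -0.11 (unadjusted p = 0.0662). The Hsph1 element lies after its start, within the window shown on chromosome 5 (149636281 to 149636302, minus strand, capitals as above), and none was found in the Dnajb1 windows.
Hsph1: gattctgGAAAGTTCtcctcag

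Cyp7a1 (ENSMUSG00000028240, chromosome 4, 6265612 to 6275633, minus strand), the enzyme that sets the pace of bile acid production, had a slope of 0.56 per step (SE 0.12, 95% confidence interval 0.31 to 0.80). It did not pass over all genes (unadjusted p = 8.51e-05, adjusted p = 0.409 by edgeR's quasi-likelihood test, Benjamini-Hochberg adjusted), while DESeq2's Wald test called it (0.55, adjusted p = 0.00347). The slopes in the runs were 0.48 and 0.65 and differed by 0.17 (SE 0.23, unadjusted p = 0.462). Without replicate 5 at 0 mg/kg, the 1 control of the 619 run, the slope in that run was 1.23. Without the 2 high-Saa1 mice at 0.5 mg/kg the slope over all mice was 0.59 (adjusted p = 0.0534, edgeR). The observed run means went different ways from 0 to 0.5 mg/kg, where the 619 run has 1 control and 2 mice.

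In the 601 run Cyp7a1 stood at 97.3, 54.0, 57.5 and 38.9 CPM in controls. At 0.5 mg/kg replicates 1 and 2, the high-Saa1 mice, had 135 and 232 CPM, above every control, and the remaining mouse had 87.3 CPM, within the control range. It was 226, 139, 139 and 114 CPM at 5 mg/kg and 277, 173, 198 and 103 CPM at 50 mg/kg, so the 3 treated doses overlapped and all 8 mice at the upper doses exceeded all 4 controls. In the 619 run the control had 82.3 CPM and the 0.5 mg/kg mice less, 36.3 and 41.9 CPM. The 5 mg/kg mice had 84.9, 91.9, 69.3 and 38.5 CPM and the 50 mg/kg mice 182, 168, 333 and 140 CPM, so only the top dose stood above the rest. Over all mice the mean was 66.0 ± 23.4 CPM (SD, n = 5) at 0, 107 ± 80.7 (n = 5) at 0.5, 113 ± 57.2 (n = 8) at 5 and 197 ± 74.4 CPM (n = 8) at 50 mg/kg. Whether the shape of the path differed between runs was not tested.

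Akr1d1 (chromosome 6, 37530173 to 37568815), the reductase that saturates the steroid ring in bile acid synthesis, had a higher level at every step in both runs, without passing (slope 0.21, SE 0.061, adjusted p = 0.897, edgeR). Means were 120 ± 29.0 CPM (SD, n = 5) at 0 mg/kg, then 174 ± 30.8 (n = 5), 184 ± 40.4 (n = 8) and 194 ± 44.3 CPM (n = 8). Most of the difference lay between 0 and 0.5 mg/kg, and the treated doses overlapped. Among 23 tested genes of bile acid synthesis and its control, 13 had positive slopes, 3 of them at an unadjusted p under 0.05 and none downward. The third was the receptor gene Nr1h4, with 0.095 (unadjusted p = 0.0339, adjusted p = 1, edgeR). The list median was 0.017 per step, 0.025 in the 601 run and -0.012 in the 619 run, so the list as a whole did not follow its 2 leading genes.

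**Figure D1:**
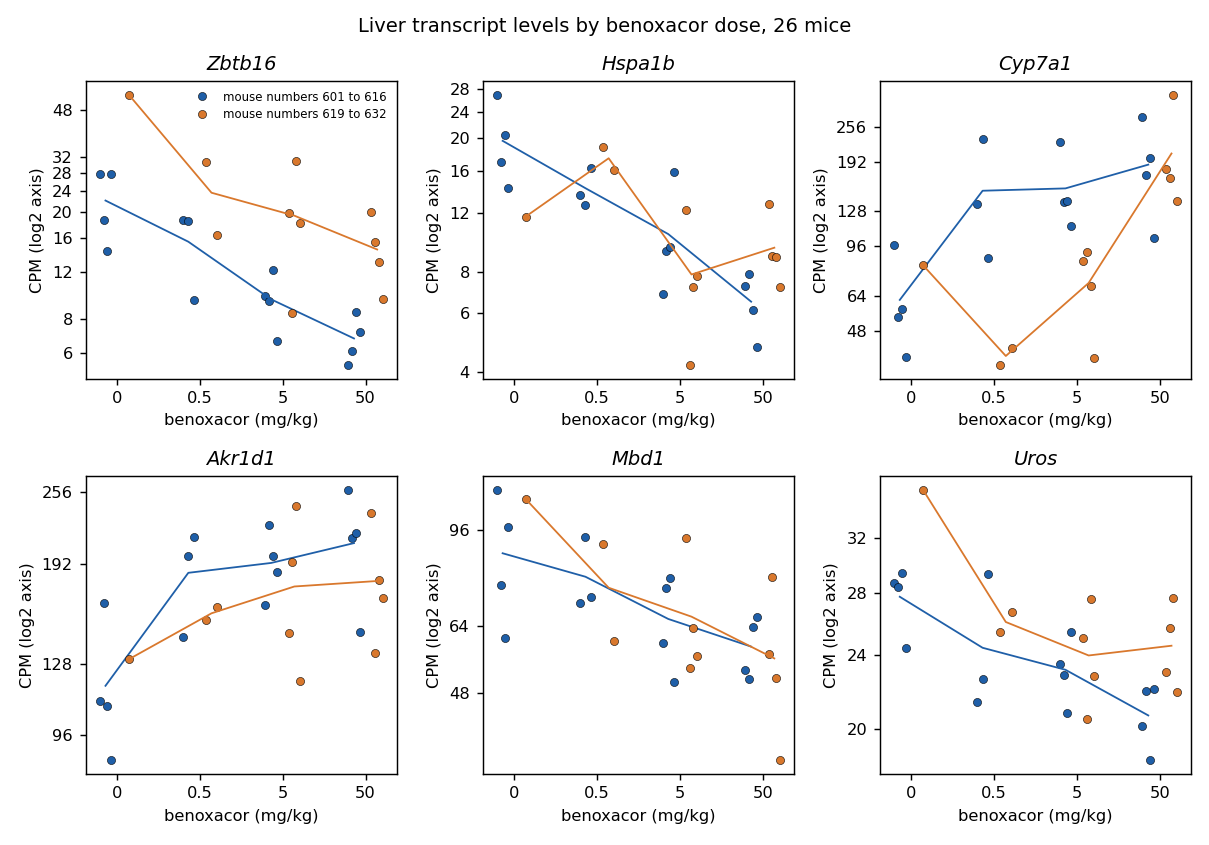
Level of 6 genes in each of the 26 mice (CPM, log2 axis) against benoxacor dose (mg/kg, 4 doses evenly spaced), with points for mice, colour for the run of mouse numbers and lines through the run means. Zbtb16 steps down in both runs from different starting levels, Hspa1b and Uros are lowest at 50 mg/kg in the 601 run, and Cyp7a1 reaches 103 to 333 CPM at 50 mg/kg by a different path in each run.

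With Zbtb16, Hspa1b and Cyp7a1 among them, 24 leading genes were taken by smallest p, 12 in each direction, with a mean of at least 1 CPM. Genes with a Gm or Rik symbol were left out of this choice. All 24 sloped the same way in both runs, which their choice on all mice favours, so it is no separate evidence. Within the 601 run, 22 of them had an unadjusted p under 0.05 (6.14% of all tested genes did), and within the 619 run, 7 did (1.82% of all). Both counts come from mice on which the genes were chosen, so they are no separate evidence either. The slope was steeper in the 601 run for 17 of them. The median standard error of a slope was 0.069 per step in the 601 run and 0.12 in the 619 run, so the smaller run resolves less.

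Upward and short of the threshold were genes of several kinds. Kdsr, which makes dihydrosphingosine in sphingolipid synthesis, had 0.14 per step, and Nat8f4, of the N-acetyltransferase 8 family, had 0.19. Rbpj, the DNA-binding factor of Notch signalling, had 0.15 and Nr3c2, the mineralocorticoid receptor, had 0.26. Ddx59, an RNA helicase, had 0.34 and Arl2bp, which binds the small GTPase Arl2, had 0.24. Their adjusted p ran from 0.593 for Kdsr to 0.897 for Nr3c2 and Arl2bp by edgeR's quasi-likelihood test, Benjamini-Hochberg adjusted.

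Downward and short of the threshold, the closest to Zbtb16 and Hspa1b among the leading genes was Mbd1, which binds methylated CpG (slope -0.23, SE 0.054, adjusted p = 0.593, edgeR). Its means were 91.6 ± 22.7, 77.4 ± 14.2, 66.1 ± 14.8 and 57.1 ± 12.7 CPM (SD) at the rising doses, and every dose overlapped its neighbour. Uros, the uroporphyrinogen III synthase of heme synthesis, had -0.13 (SE 0.033), with means of 29.4 ± 4.21, 25.1 ± 3.17, 23.6 ± 2.37 and 22.6 ± 2.90 CPM. In the 601 run all 4 Uros values at 50 mg/kg (18.5 to 22.1 CPM) lay below the 4 controls (24.4 to 29.4 CPM), and in the 619 run all 10 treated mice lay below the control at 36.1 CPM. Uros overlaps Bccip on the other strand, and whether the counting used strand is not given in the sources used here. Rabgef1, an exchange factor for Rab5, had -0.16, Tnk2, a tyrosine kinase, had -0.18, and Banp, a nuclear matrix protein that binds DNA, had -0.23. Serpina3e-ps, a pseudogene of the serpin A3 family, had the steepest slope of the 24 leading genes (-0.66) and their widest error (SE 0.17), with 1 control at 24.5 CPM in the 619 run and at most 11.6 CPM in any other mouse. Without that control its slope was -0.32.

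**Figure D2:**
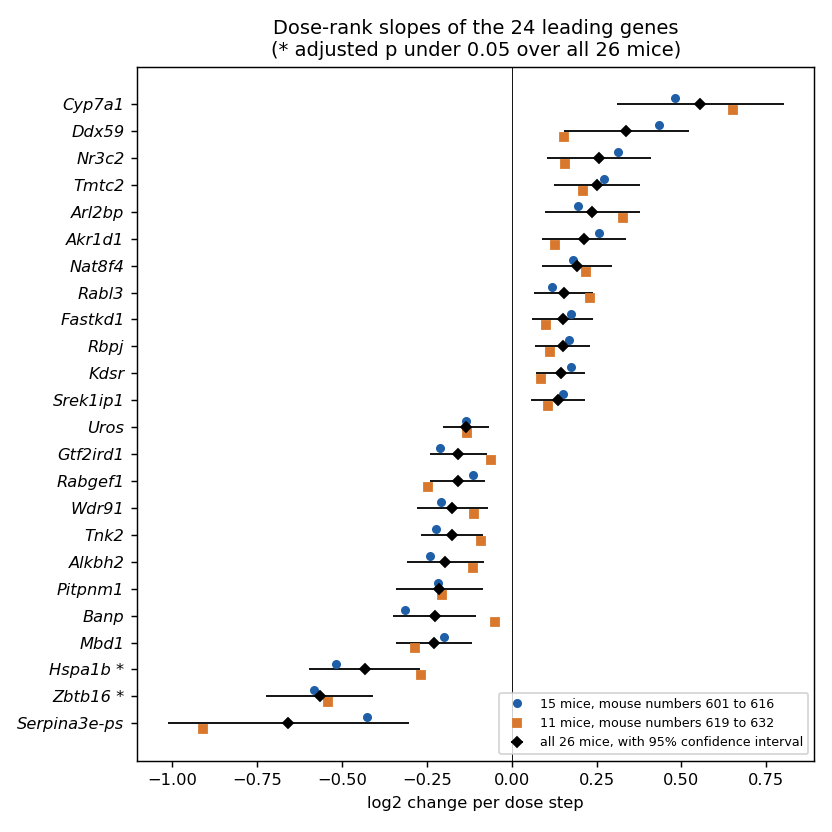
Log2 change per dose step of the 24 leading genes (x axis), with diamonds and 95% confidence intervals for all 26 mice, circles for the 15 mice of the 601 run and squares for the 11 mice of the 619 run. Each gene has the same sign in both runs, and the asterisks mark Zbtb16 and Hspa1b, the genes past an adjusted p of 0.05.

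A slope does not require that every step goes the same way. Fitted dose levels, with each dose its own term and run in the fit, went 1 way at all 3 steps in 1057 genes (7.33% of those tested), 539 upward (3.74%) and 518 downward (3.59%). Of the genes with an unadjusted trend p under 0.05, 259 (1.8% of all tested) were graded in this sense, and 20 of the 24 leading genes were. Kdsr, Tmtc2, Nr3c2 and Serpina3e-ps were the 4 that were not. A choice by small trend p in the same mice favours graded steps, so these counts are no separate evidence. Levels unrelated to dose also go 1 way at all 3 steps in some genes. The 1057 genes are therefore a description, not a count of responses to dose.

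Within single runs the shares of graded genes were lower. Means were graded in 873 genes in the 601 run (6.06%) and in 692 in the 619 run (4.8%), where the first step rests on 1 control. In both runs 31 genes (0.215%) were graded in the same direction, 14 upward (0.0971%) and 17 downward (0.118%), and 18 (0.125%) were graded in opposite directions. Some genes are graded in both runs without a shared response, so these counts are a description. The 28 of the 31 with a mean of at least 1 CPM and an established symbol were 13 upward and 15 downward. Of these, 23 had an unadjusted trend p under 0.05 (4.26% of all tested genes did). Steps in 1 direction in the same mice favour a small trend p, so this count is no separate evidence.

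Zbtb16 led the genes graded downward, followed by Mbd1 and Tnk2. Wdr91, which helps early endosomes mature, had -0.17 (-0.21 and -0.11 in the runs), and Pitpnm1, a phosphatidylinositol transfer protein, had -0.21 (-0.22 and -0.20). Mtmr4, a phosphatase of endosomal phosphoinositides, had -0.13 in all mice, -0.15 in the 601 run and -0.083 in the 619 run. The protease Capn2 had -0.092 and nearly equal slopes in the runs (-0.096 and -0.085), and Soat2, which esterifies cholesterol in hepatocytes, had -0.098 (-0.093 and -0.11). Among the genes graded upward were Nat8f4, Akr1d1, Dkc1, the pseudouridine synthase of small nucleolar RNPs (0.11, with 0.11 and 0.10), and Smn1, which assembles spliceosomal RNPs (0.18, with 0.12 and 0.32). None but Zbtb16 passed over all genes.

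Over all genes the runs barely agreed. Slopes had the same sign in the 2 runs in 7276 of 14415 genes (50.5%), and across genes the slopes had a Pearson r of -0.013 and a Spearman rho of 0.025, given as a description because genes of 1 mouse share its library. Among the 8662 genes averaging at least 10 CPM the share was 50.3%, so restricting to better measured genes left it where it was. The 601 run called 2 genes (0.0139%), Zbtb16 and Hspa1b, with 885 at an unadjusted p under 0.05 (6.14%), while DESeq2's Wald test called 11 and limma-voom 3. The 619 run called none in edgeR, with 262 (1.82%) at an unadjusted p under 0.05, while DESeq2's Wald test called 1 and limma-voom none.

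Agreement was higher among the best supported genes of the larger run. Of the 100 genes with the smallest p in the 601 run, 72 had the same sign in the 619 run, which shares no mice with it. Those with positive slopes had the same sign in 41 of 50 cases and those with negative slopes in 31 of 50. Their median slope was 0.24 per step in size in the 601 run and 0.059 in the same direction in the 619 run. Read the other way, 57 of the 100 leading genes of the 619 run had the same sign in the 601 run, 36 of 54 with negative and 21 of 46 with positive slopes. The share of 72% for the leading genes of the 601 run was 61% with the clock index, 56% by limma-voom and 43% without replicate 5 at 0 mg/kg, the 1 control of the 619 run.

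Genes at an unadjusted p under 0.05 in both runs were few, 11 in the same direction (0.0763%) and 7 in opposite directions (0.0486%). In the 601 run 6.14% of all tested genes reached that p, and in the 619 run 1.82%, so some overlap arises without a shared response. The 11 are therefore named as a description. The 11 were Zbtb16, Cyp7a1, Mbd1, Rabgef1, Arl2bp and, named after their values were seen, Cyp4f17, Idh3a, St5, Sap130, Crybg2 and Gm44597. Idh3a, the catalytic subunit of mitochondrial isocitrate dehydrogenase, had 0.15 in the 601 run and 0.24 in the 619 run. Cyp4f17, a P450 of the family that hydroxylates fatty acid ends, had -0.15 and -0.23. Neither passed over all mice (adjusted p = 0.897 for both, edgeR).

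**Figure D3:**
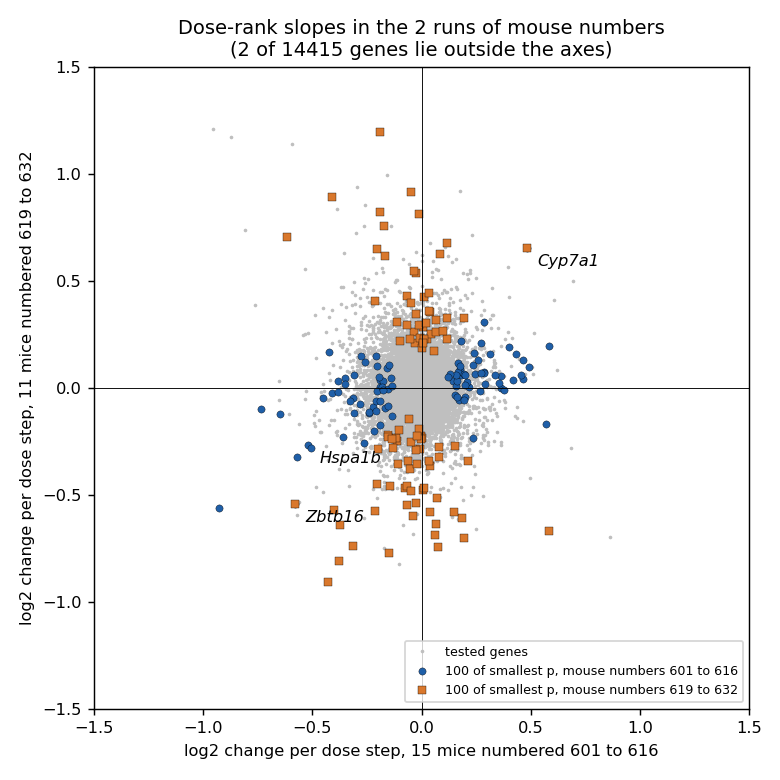
Log2 change per dose step of each tested gene in the 601 run (x axis, 15 mice) against the 619 run (y axis, 11 mice), with circles and squares for the 100 genes of smallest p in each run and 2 of 14415 genes outside the axes. The cloud shows no slope (50.5% of genes share a sign), and the leading genes of either run lie mostly along that run's own axis, with Zbtb16 and Cyp7a1 away from both axes.

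The leading genes of each run alone show what did not carry over. In the 601 run Sult1a1, a phenol sulfotransferase, had a slope of 0.29 that did not pass (unadjusted p = 2.10e-05, adjusted p = 0.101, edgeR), from 111 to 142 CPM in the controls to 224 to 258 CPM at 50 mg/kg with no overlap. Sult1a1 did pass in that run by DESeq2 (adjusted p = 1.44e-04), by limma-voom (0.0430), with no filter (0.04996), with the control placed 2 steps below 0.5 mg/kg (0.0134), with the clock index (0.0306) and without the 2 high-Saa1 mice at 0.5 mg/kg (0.00523), and of the fits leaving out 1 mouse only in that without replicate 2 at 0.5 mg/kg. In the 619 run its slope was 0.074 (unadjusted p = 0.647), and its 50 mg/kg mice, at 131 to 280 CPM, spanned the control at 144 CPM. Ces1g, a liver carboxylesterase, had 0.27 and -0.016, and the uptake transporter Slco1a4 had 0.47 and 0.13. Csf2ra, a receptor chain for the growth factor GM-CSF, had -0.41 and -0.027. None of them passed in edgeR, while DESeq2's Wald test called Ces1g, Slco1a4 and Csf2ra in the 601 run (adjusted p = 0.0112, 0.00322 and 0.0269). In the 619 run the leading named genes were Zpr1 and Ctcflos downward and Rnf43, a ubiquitin ligase that restrains Wnt receptors, upward (0.35, against 0.040 in the 601 run). Zpr1 was the gene that DESeq2's Wald test called in the 619 run (slope -0.33).

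No gene passed the test of a difference in slope between runs in edgeR, DESeq2 or limma-voom, and 374 (2.59%) had an unadjusted p under 0.05 in edgeR. Among genes with an established symbol and a mean of at least 1 CPM, Gnpda1, a glucosamine-6-phosphate deaminase, had the smallest p. Its slope was 0.15 in the 601 run and -0.27 in the 619 run (unadjusted p = 3.83e-04, adjusted p = 0.9999 for the difference, edgeR). Zpr1, a zinc finger protein of growth signalling, had 0.081 and -0.32. In the 619 run its level went from 109 CPM in the control to 87.3 and 89.1 CPM at 0.5, 45.9 to 66.4 CPM at 5 and 53.7 to 57.1 CPM at 50 mg/kg, while the 601 run overlapped at all doses. A p that misses the threshold does not show that the runs responded alike.

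The shares of same-sign slopes were lower without the 0 mg/kg mice. With the trend taken over 0.5, 5 and 50 mg/kg only, slopes had the same sign in 35.1% of genes, and the shares of the leading 100 were 26% in place of 72% and 13% in place of 57%. Under that setting 2 genes, Cyren and Gm20939, passed the test of a difference between runs. When the 2 mice of high Saa1 at 0.5 mg/kg were left out as well, a setting chosen after seeing the data, the share of all genes was 47.8% and that of the leading 100 of the 601 run was 49%. Both of those mice belong to the 601 run.

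A test of departure from a straight line called no gene, with 945 (6.56%) at an unadjusted p under 0.05. A test of any difference among the 4 doses called 1, Zbtb16 (0.00694%), with 821 (5.7%) at an unadjusted p under 0.05. Zbtb16 passed this test in 17 of 26 fits that each left out 1 mouse, missing it without replicate 1, 4 or 5 at 0, replicate 4 at 0.5, replicate 2 at 5 or replicate 1, 2, 4 or 7 at 50 mg/kg. The test called no gene with the clock index, with no filter or with no run term. In the departure test, the 3 genes of smallest p with an established symbol and at least 1 CPM had their highest means at 0.5 mg/kg. Tifa, an adaptor that activates NF-kB, stood at 11.7 to 12.6 CPM in controls, 15.1 to 77.5 CPM at 0.5, 9.53 to 22.6 CPM at 5 and 10.4 to 21.1 CPM at 50 mg/kg. Cers6, a ceramide synthase, had means of 13.7 ± 5.92 (SD, n = 5), 38.4 ± 24.3 (n = 5), 13.99 ± 4.61 (n = 8) and 18.7 ± 6.19 CPM (n = 8). Saa3, an acute phase serum amyloid, reached 48.5 and 91.9 CPM in replicates 1 and 2 at 0.5 mg/kg and at most 12.1 CPM elsewhere. All 3 had an adjusted p of 0.207 by edgeR's quasi-likelihood test, Benjamini-Hochberg adjusted. Their fitted differences of 0.5 from 0 mg/kg were 1.64, 1.56 and 2.19 on the log2 scale and 0.67, 0.82 and 0.22 without replicates 1 and 2. With replicate 3 at 0.5 mg/kg left out, Cers6 and Saa3 passed (adjusted p = 0.0167, edgeR), and with replicate 5 left out, Tifa and Saa3 did (adjusted p = 0.0406, edgeR).

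**Figure D4:**
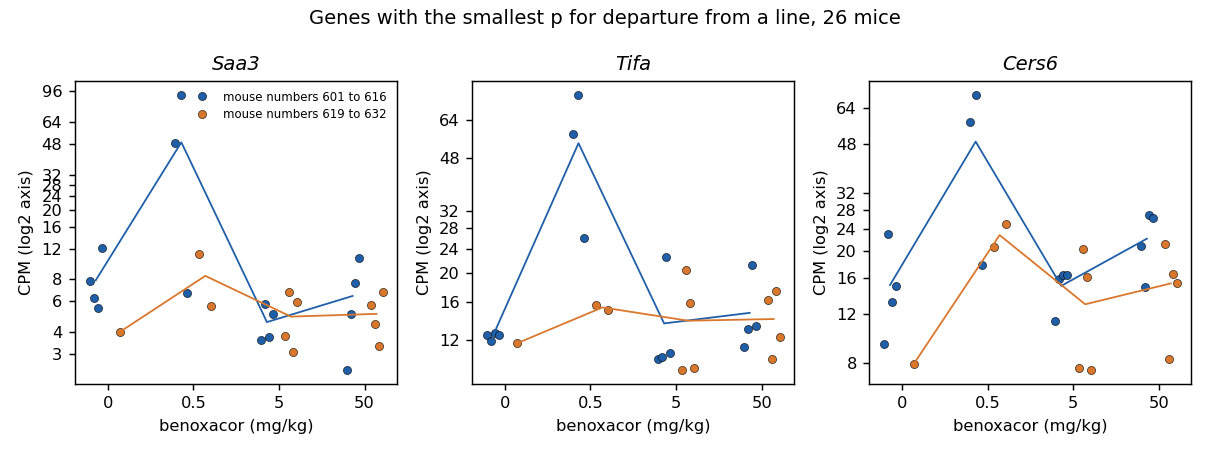
Level of Saa3, Tifa and Cers6 in each of the 26 mice (CPM, log2 axis) against benoxacor dose (mg/kg), with points for mice, colour for the run of mouse numbers and lines through the run means. The highest values at 0.5 mg/kg are those of 2 mice of the 601 run, at 48.5 and 91.9 CPM for Saa3.

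Gene lists were described by the signs and the median of their members' slopes. Lists of xenobiotic receptor targets had medians above 0 in the 601 run, and in the 619 run those of CAR and PXR were below 0. CAR targets had 16 of 23 positive slopes and a median of 0.068, with 0.099 in the 601 run and -0.041 in the 619 run. PXR targets had 11 of 20 and 0.016, with 0.041 and -0.072, and AhR targets had 9 of 12 and 0.033, with 0.038 and 0.021. None of their members passed over all genes. Cyp2c54, a steroid and drug hydroxylase, had 0.18 and Cyp2b10, the usual marker gene of CAR, had 0.43, both at an unadjusted p under 0.05 (0.0213 and 0.0444, edgeR).

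Cyp2b10 was not graded over all mice, while its means in the 601 run rose at each step. It was at 1.12 ± 0.422 CPM (SD, n = 4) in controls of the 601 run, 3.96 ± 1.05 (n = 3) at 0.5, 4.34 ± 3.00 (n = 4) at 5 and 5.33 ± 4.72 CPM (n = 4) at 50 mg/kg. In the 619 run it was 1.03 CPM in the control, 5.08 and 5.38 CPM at 0.5, and 2.96 ± 3.82 and 3.57 ± 2.62 CPM (n = 4 each) at 5 and 50 mg/kg. The treated doses overlapped in both runs, and all 5 mice at 0.5 mg/kg were above all 5 controls, which ranged from 0.700 to 1.51 CPM.

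Some metabolic lists had medians of opposite sign in the runs and others did not. PPAR-alpha targets, genes of fatty acid burning, had 25 of 33 positive slopes in the 601 run and 4 of 33 in the 619 run, with medians of 0.044 and -0.12. Nuclear-encoded respiratory chain genes had 43 of 52 and 9 of 52 positive, and glutathione S-transferases 15 of 22 and 2 of 22. Fatty acid and triglyceride synthesis genes were mostly positive in both, 16 of 23 in each (medians 0.063 and 0.023), as were cholesterol synthesis and uptake genes, 14 of 25 and 22 of 25, and mitochondrially encoded genes mostly negative, with 4 of 15 and 0 of 15 positive. NRF2 targets, which answer oxidative stress, had 17 of 24 negative slopes over all mice, medians of -0.029 and -0.071 in the runs, and Gclc, of glutathione synthesis, at -0.15 (unadjusted p = 0.0136, adjusted p = 1, edgeR).

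Inflammatory and immune lists differed between runs in the other direction, with no test of the difference. Acute phase genes had 10 of 36 positive slopes in the 601 run and 29 of 36 in the 619 run, with medians of -0.057 and 0.15, and interferon response genes had 17 of 45 and 35 of 45. Kupffer and macrophage markers had 1 of 17 and 15 of 17 positive, with medians of -0.096 and 0.086, and lymphocyte markers 1 of 9 and 7 of 9. The summed Kupffer and macrophage markers ranged from 331 to 513 CPM at 0, 249.5 to 563 at 0.5, 294 to 461 at 5 and 224 to 512 CPM at 50 mg/kg. The part of these cells in the results was not tested. Without the 2 mice of high Saa1 at 0.5 mg/kg, the medians over all mice were 0.079 in place of 0.026 for acute phase genes and -0.011 in place of -0.039 for Kupffer and macrophage markers. In whole liver, fewer cells of a type and less RNA per cell cannot be told apart.

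Sex-biased liver genes also leaned apart over all mice. Male-biased genes had 7 of 32 positive slopes (median -0.075, with -0.097 and -0.0040 in the runs) and female-biased genes 12 of 15 (median 0.11, with 0.18 and -0.014). No member of either list passed over all genes.

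ER stress genes, which answer unfolded protein, had 27 of 34 negative slopes and a median of -0.040, with -0.065 and 0.0069 in the runs. Herpud1, of protein degradation at that membrane, had -0.17 and Syvn1, the ubiquitin ligase of the same pathway, -0.22, neither past the threshold (unadjusted p = 0.0125 and 0.0223, adjusted p = 1 for both, edgeR). Among glucocorticoid receptor targets 14 of 31 slopes were positive. Zbtb16 fell, Fkbp5, a cochaperone of that receptor, had 0.25 and the cell cycle inhibitor Cdkn1a had -0.47 (unadjusted p = 0.0109 and 0.0147, adjusted p = 1 for both, edgeR), so the named members did not share a direction. Without replicate 4 at 0 mg/kg the slope of Cdkn1a was -0.23. Other repressors of the zinc finger BTB class had 10 of 28 positive slopes with Zbtb16 counted, and Zbtb16 was the member that passed.

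Of 39 lists with at least 5 tested genes, the medians of the 2 runs had the same sign in 13, 4 both positive and 9 both negative. In 15 lists the 601 run was positive and the 619 run negative, and in 11 the reverse. Circadian clock genes had the same sign of slope in the runs in 18 of 22 cases, although their list medians were of opposite sign (-0.014 and 0.0025). Among the 18 were Hlf, a clock output factor (0.17, 0.17 and 0.16 over all mice and the runs), Rora (-0.13, -0.12 and -0.15) and Arntl (-0.27, -0.30 and -0.23). With the clock index in the fit Zbtb16 had -0.55 and Hspa1b -0.48, both past the threshold (adjusted p = 0.00368 and 0.00397, edgeR).

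**Figure D5:**
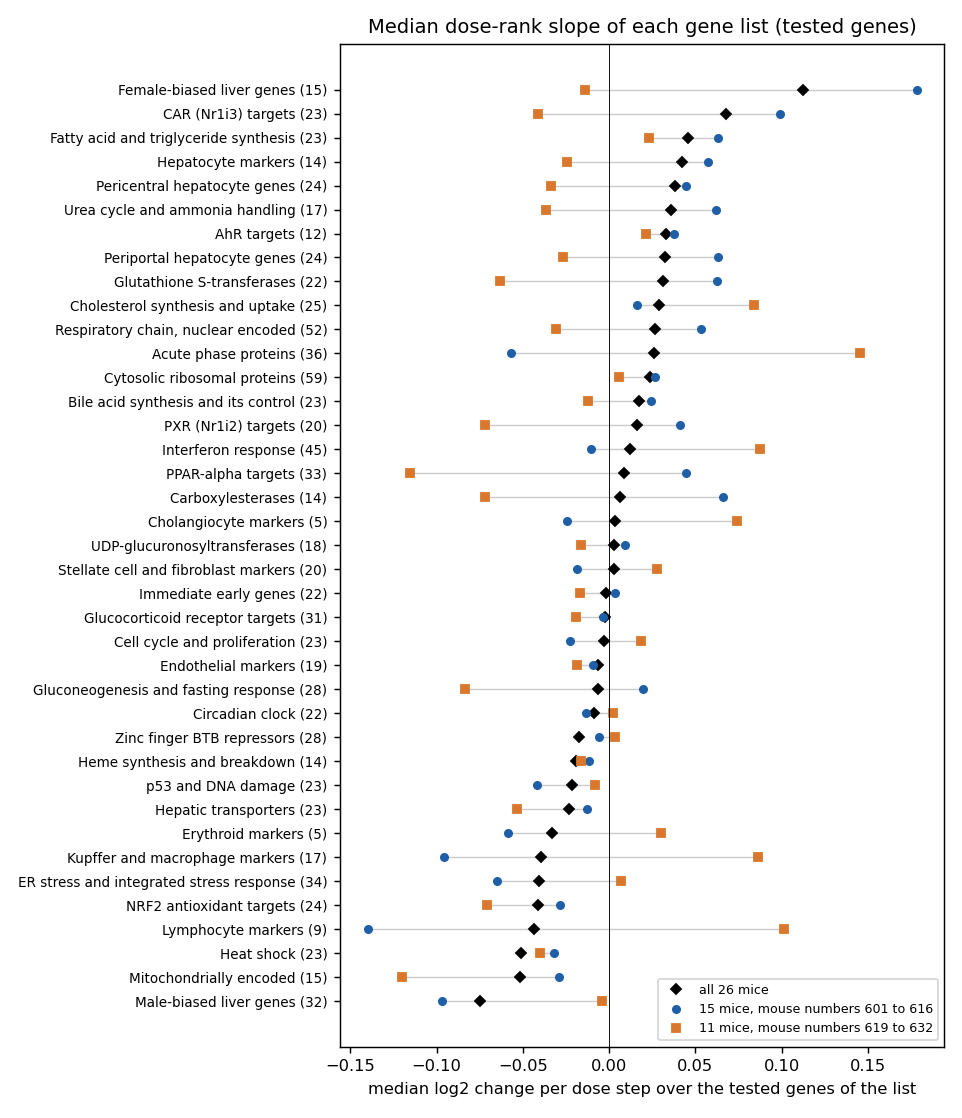
Median log2 change per dose step (x axis) of each of 39 gene lists with at least 5 tested genes (number in brackets), with diamonds for all 26 mice, circles for the 601 run and squares for the 619 run. Circles and squares fall on opposite sides of 0 in 26 lists, as for acute phase genes (-0.057 and 0.15) and PPAR-alpha targets (0.044 and -0.12).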

How the data were processed

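Liver RNA of 26 mice was sequenced, 1 library a mouse. Raw counts per gene were deposited by the authors, made with bcl2fastq and featureCounts on mm10 per the submitters' processing notes. The aligner, annotation, strand setting and versions are not given in the sources used here. The combined table was used, and each of the 26 single-library files held the same values. Totals were 5433074 to 9088626 counts, and 14415 of 54532 genes passed edgeR's filterByExpr by dose (99.7% of counts). Coordinates come from GENCODE M21 by gene ID.

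Trends were fitted with edgeR 4.0.16 (robust quasi-likelihood, TMM factors, run plus dose code, a 2-sided test with Benjamini-Hochberg adjustment over all tested genes) in R 4.3.3. The same line was fitted within each run, and further tests covered the run by dose-code interaction, departure from a line and any dose difference. P-values measure the spread between mice. The 24 leading genes are the 12 of smallest trend p in each direction with a mean of at least 1 CPM and no Gm or Rik symbol. Genes graded in both runs, those leading in 1 run, the interaction or the departure test, and listed genes were named too. The members and lists were chosen with earlier results of these data known. Within-dose pairs of libraries differed by more than counting noise (chi-square per degree of freedom 12.0 to 124).

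Alternatives were DESeq2 1.42.0, limma 3.58.1 voom, DESeq2 size factors, other filters, no run term, other dose codings, no robust step, another threshold, a clock index, summed Hspa1a and Hspa1b, and mice or doses left out. The fits were tested on simulated data.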

Additional observations from a re-analysis of the deposited data

Results flagged for a closer look

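Within groups of 4 to 10 mice the lowest or highest value was compared with its nearest neighbour, and 1 of 44 groups checked had a value standing apart. The check covered total counts, Zbtb16, Hspa1b alone and summed with Hspa1a, Cyp7a1, Akr1d1, Mbd1, Uros, Tifa, Cers6 and Saa3, by dose. Saa1, Serpina3e-ps and the cell marker sums were not checked in this way. The library of replicate 1 at 0.5 mg/kg had 5433074 counts, with the next at 8106695, a gap of 0.731 of the group's range. Chance gives such a value in about 1 in 20 groups. That mouse also had 2311 CPM of Saa1, and without it the slope of Hspa1b was -0.43 (adjusted p = 0.0693 by edgeR's quasi-likelihood test, Benjamini-Hochberg adjusted).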

How the results depend on the processing

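No paired analysis was possible because the labels give no replicate numbers shared between doses. The cause of each change below was not tested. Without any 1 of 26 mice, the trend called 0 genes higher and 1 to 2 lower, the 601 run called 1 to 3, departure 0 to 2 and any dose 0 to 4, with 924 to 1352 graded genes. The shares with the same sign in both runs were 42.9 to 57.0% of all genes, 43 to 80% of the 100 leading genes of the 601 run and 39 to 68% of those of the 619 run. Zbtb16 had slopes of -0.59 to -0.53 and passed in 26 of 26 fits, Hspa1b had -0.49 to -0.39, and Cyp7a1 had 0.49 to 0.66 and passed in 0. DESeq2's Wald test called 1 gene higher, 11 in the 601 run and 1 in the 619 run. Limma-voom called 1 lower, with a leading share of 56% for the 601 run and Hspa1b at -0.43 (adjusted p = 0.0790). With no filter the 601 run called 4, any dose 0, 2903 genes were graded, and the shares were 52.2% of all and 39% for the 619 run. With no run term 1 gene was lower, any dose called 0 and Zbtb16 had -0.46. With dose in mg/kg the trend and the 601 run called 0, the shares were 45.5% of all and 61% for the 601 run, and Zbtb16 had -0.37 and Hspa1b -0.27. With 0 mg/kg placed 2 steps below 0.5, 1 gene was lower, 53.1% shared a sign and Hspa1b had -0.33. With no robust estimation 1 was lower and Hspa1b had -0.43 (adjusted p = 0.0575). Without replicates 1 and 2 at 0.5 mg/kg 1 was lower, 51.3% shared a sign and Hspa1b had -0.44. Without the 0 mg/kg mice the trend, the 601 run and any dose called 0, the interaction 2, the shares were 35.1, 26 and 13%, and Zbtb16 had -0.48, Hspa1b -0.47 and Ppox 0.030, its sign reversed. Without the 50 mg/kg mice the trend and any dose called 0, the 601 run called 1, the leading shares were 47 and 46%, and Zbtb16 had -0.63 and Hspa1b -0.48. With the clock index any dose called 0 and the leading share of the 601 run was 61%. With Hspa1a and Hspa1b summed 1 was lower, at -0.42. Leaving out the 0 mg/kg mice and replicates 1 and 2 at 0.5 mg/kg, a setting added after seeing the data, the trend, the 601 run and any dose called 0, the shares were 47.8% of all and 49% for the 601 run, and Zbtb16 had -0.35 and Hspa1b -0.49. Signs then reversed for Cyp2b10 (-0.057), Por (-0.0013), Ces1g (-0.066), Slc10a1 (-0.044), Syvn1 (0.051), Ppox (0.013), Zbtb40 (0.13) and Folr2 (0.027). Over all settings, values of single genes were tallied: slopes, slope differences between runs and departures from a line. Of these, 5019 stayed on their side of the threshold, 43 lost it, 19 gained it and 9 reversed in sign. Only Zbtb16 and Hspa1b were past it in the main fits, so only they could lose it. Most of the 5019 were never past it, so the tally does not measure how stable the calls are. List medians over all mice were tallied apart. From the main value, 1348 stayed within a standard error of the members' slopes and 290 moved further. Depth limits genes near the filter, such as Hspa1a.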
